A study of Mus musculus with 16 samples.

Results

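The Cyp2b genes encode cytochrome P450 enzymes of the liver that oxidize drugs, steroids and other foreign compounds, and 3 of them, Cyp2b10, Cyp2b13 and Cyp2b9, lie side by side on mouse chromosome 7. The open chromatin at these 3 genes was examined out of 22225 annotated protein-coding genes. DNase hypersensitive sites (DHS) were taken for each gene from 20 kb before its start to 20 kb past its end, and sites of different lists that shared at least 1 bp were merged as 1 region. This gave 10 regions out of 51482 in the genome. They are called R1 to R10 in the order in which they lie on the chromosome.

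DNase I cuts DNA where nucleosomes are displaced, so a DHS marks a promoter, enhancer or other stretch of open chromatin. Liver nuclei came from 8-week-old males and females of C57BL/6J (B6), the inbred strain that underlies the mouse reference genome, and of CAST/EiJ (CAST), an inbred strain of another mouse subspecies. No mouse was described as treated or as carrying an engineered allele, and the nuclei of each liver were digested with 32 units of DNase I. The 16 libraries formed 4 groups of 4 (male B6, female B6, male CAST and female CAST), and 1 DHS list was called per group on the merged libraries, so that each comparison is between single lists with n = 1, no spread between replicates and no p-value.

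In the rodent liver, Cyp2b10 is best known as the gene that phenobarbital and related compounds switch on. They activate the nuclear receptor CAR, which pairs with RXR and binds an upstream enhancer of the gene called the phenobarbital-responsive enhancer module. Cyp2b9 and Cyp2b13 are known in adult mice as genes expressed more in female than in male liver, a difference that follows the pituitary pattern of growth hormone release and its mediator, the transcription factor STAT5. The question put to the lists was where open chromatin lies at these genes in each sex and strain.

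The lists differed in size and depth. They held 38751 DHS (male B6), 26271 (female B6), 39562 (male CAST) and 24888 (female CAST). The number of reads stacked at the summit of a DHS (its pileup) was recovered from the deposited values, and the genome-wide background was 15.4 reads (male B6), 13.9 (female B6), 14.3 (male CAST) and 7.94 (female CAST). On that background the weakest DHS of each list had a pileup of 30, 28, 28 and 19 reads, in the same order, and a site below these values was not detectable there. The start sites of 10 hepatocyte genes carried a DHS for 7 to 9 genes in every list, and those of Kupffer cell, bile duct and lymphocyte markers and of 4 genes of other tissues for 0. Of 4 stellate cell markers, 1 had a DHS at the start in each list except female CAST, with 0. Of 5 markers of sinusoidal endothelium, 4 had a DHS at the start in male B6, 1 did in female B6 and 0 did in either CAST list. The promoters of 4 Y-linked genes were DHS in male B6 and in no other list. On the whole Y chromosome there were 53 DHS in male B6, 15 in the female B6 list and 0 in either CAST list. The Y chromosome thus gave no check of sex for the CAST lists, whose sex was taken from the library titles. Since whole livers were used, fewer cells with an open site and a less open site per cell cannot be told apart.

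No list held a DHS within 1 kb of the start of Cyp2b10 (ENSMUSG00000030483.8, chr7:26682639-26711643), Cyp2b13 (ENSMUSG00000040583.6, chr7:26846514-26881215) or Cyp2b9 (ENSMUSG00000040660.6, chr7:26958430-26995680). All coordinates are mm9, and the 3 genes lie on the + strand. The DHS nearest to the start of Cyp2b10 ended 1977 bp away in male B6. In female B6 the nearest was 7934 bp away, in male CAST 4675 bp and in female CAST 4546 bp. The nearest DHS to the start of Cyp2b13 was 21002 bp away, in male B6, and the nearest to that of Cyp2b9 was 34152 bp away, in female B6. Genome-wide, 54.3% of protein-coding genes had a region within 2.5 kb of the start, and 1 of the 3 Cyp2b genes had one, R3 at Cyp2b10.

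**Figure D1:**
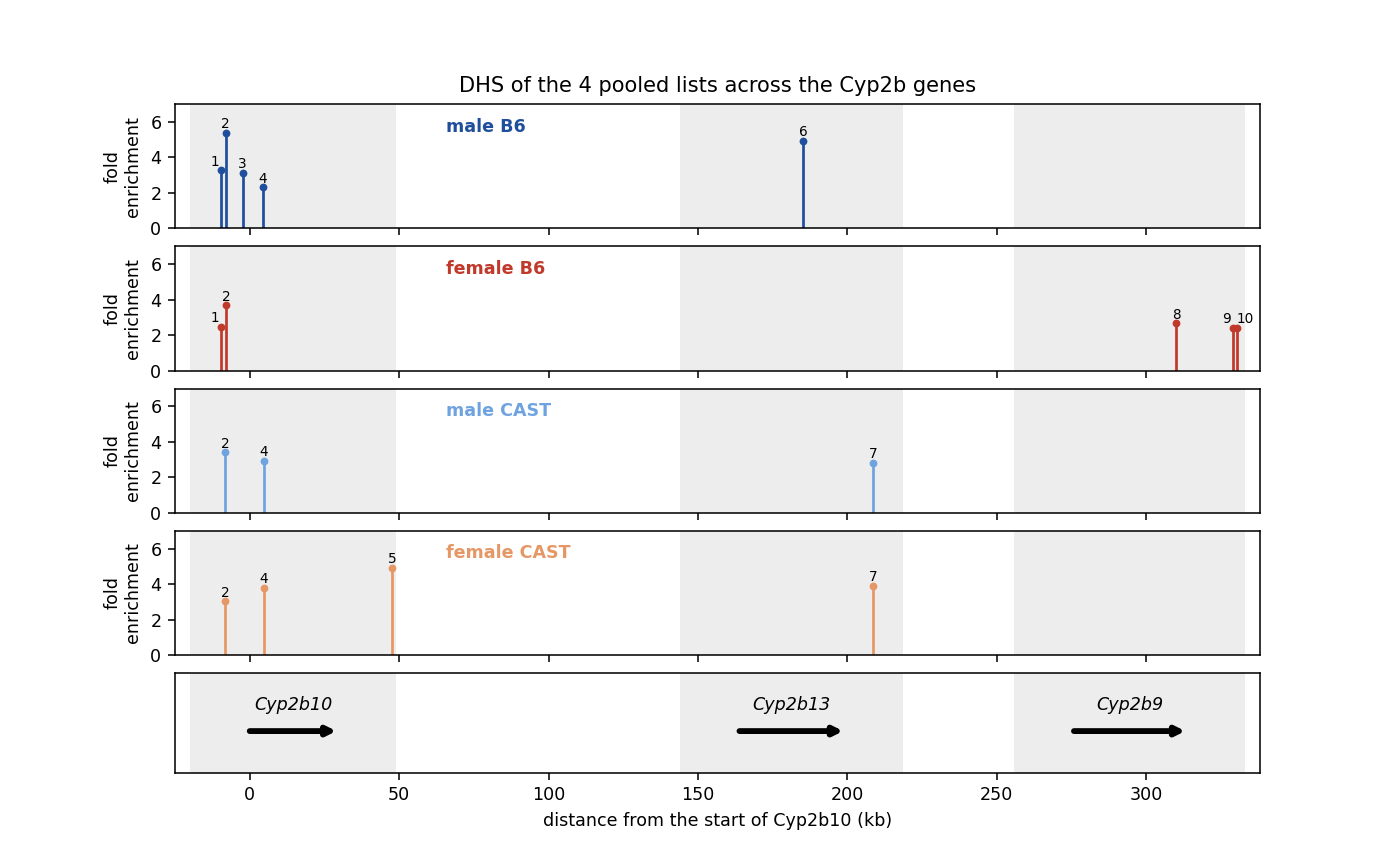
DHS of the 4 pooled lists across the 3 Cyp2b genes. The x axis is the distance from the start of Cyp2b10 in kb and the y axis is the fold enrichment at the summit, each stem is 1 DHS with its region number, grey bands are the windows of 20 kb around each gene, and arrows are the genes in the direction of transcription. Male B6 had stems at Cyp2b10 and Cyp2b13, female B6 at Cyp2b10 and Cyp2b9, and the CAST lists at Cyp2b10 and Cyp2b13.

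Cyp2b10 had 5 regions, Cyp2b13 had 2 and Cyp2b9 had 3. Over all protein-coding genes the median was 2 regions by the same window. By list, the 3 genes together had 5 regions (male B6), 5 (female B6), 3 (male CAST) and 4 (female CAST). At Cyp2b10 the counts were 4, 2, 2 and 3 in that order. At Cyp2b13 they were 1, 0, 1 and 1. At Cyp2b9 they were 0, 3, 0 and 0, so that female B6 was the only list with a DHS at Cyp2b9. Fold enrichment is the pileup at the summit divided by the local background, with 1 added to both. Summed over the window of Cyp2b10 it was 14.1 (male B6), 6.19 (female B6), 6.36 (male CAST) and 11.8 (female CAST). The sums at Cyp2b13 were 4.95, 0, 2.82 and 3.91, and that of Cyp2b9 was 7.5 in female B6.

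**Figure D2:**
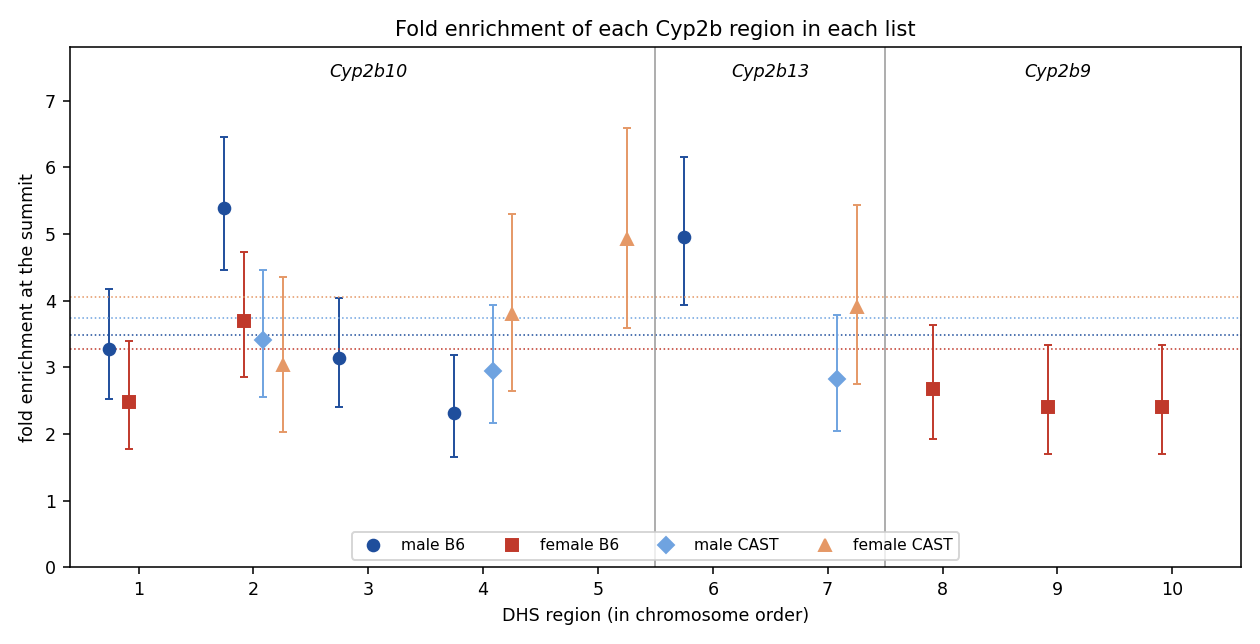
Fold enrichment at the summit (y axis, no unit) of the 10 Cyp2b regions (x axis, in chromosome order) in each of the 4 pooled lists. Points are single list values, bars are exact Poisson 95% intervals of the summit pileup, which cover counting error only, dotted lines are the median fold enrichment of all DHS of each list, and a missing point means that the list held no DHS there. R2 in male B6 was the highest value, at 5.39, and the 3 regions of Cyp2b9 lay between 2.41 and 2.68, below the female B6 median of 3.28.

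The regions upstream of Cyp2b10 carried the site shared by all lists. R2 (chr7:26674378-26674946, intergenic) had its strongest summit 8.04 kb before the gene start and was the only Cyp2b region in all 4 lists. This was 1 region of 10, where 35.6% of all regions were in all 4 lists. With each list limited to its 24888 strongest DHS, R2 was no longer in male CAST, and at a −log10 q of at least 15.7 it was in male B6 alone, so that 0 regions were in all 4 lists under either setting. The −log10 q of R2 was 44.6 (male B6), 15.3 (female B6, just under that limit), 11.5 (male CAST) and 4.72 (female CAST). Its fold enrichment was 5.39 (male B6), 3.7 (female B6), 3.41 (male CAST) and 3.03 (female CAST), from pileups of 116, 62, 51 and 27 reads. Male B6 was the highest of the 4 lists, and its counting interval (4.46 to 6.46) overlapped that of female B6 (2.85 to 4.73), met that of male CAST (2.56 to 4.46) at its end and did not overlap that of female CAST (2.03 to 4.35). Within their lists these values stood at the 71.2nd, 56.8th, 36.7th and 16.6th percentile of −log10 q, ranks that also depend on the length and depth of each list. The summits of the male and female list lay 55 bp apart in B6 and 12 bp apart in CAST, whereas B6 and CAST summits were 61 to 128 bp apart. The 300 bases around the male B6 summit (chr7:26674447-26674746, + strand) are shown because R2 is the only Cyp2b region of all lists. Capitals mark the sole match to a searched motif, TATAAA read on the other strand.

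R2: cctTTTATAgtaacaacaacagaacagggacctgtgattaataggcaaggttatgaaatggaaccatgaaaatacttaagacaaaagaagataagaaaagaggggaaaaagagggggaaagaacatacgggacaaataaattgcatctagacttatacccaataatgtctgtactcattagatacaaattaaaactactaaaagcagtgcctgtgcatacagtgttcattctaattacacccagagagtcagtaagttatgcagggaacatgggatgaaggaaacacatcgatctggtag

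The male to female ratio of fold enrichment at R2 was 1.46 in B6, where the median over the 23644 regions of both B6 lists was 1.32. Relative to that median the log2 ratio was 0.14 (95% counting interval −0.30 to 0.62). In CAST the log2 ratio at R2 was −0.08 (−0.75 to 0.68) relative to the median over 22764 regions. Neither ratio differed from the median beyond counting error. Between strains, R2 had the lower value in CAST, with a log2 ratio of CAST to B6 of −0.74 in males (−1.26 to −0.27) and −0.54 in females (−1.28 to 0.11), each relative to its median. The interval in males did not include 0 and that in females did. CAST reads were mapped to a genome with CAST variants written into it, and the part of mapping in this difference was not tested. No Cyp2b region reached a 2-fold difference from the median in any of the 4 comparisons, where 0.22% of regions did between the sexes in B6, 0.369% between the sexes in CAST, 2.31% between the strains in males and 1.1% between the strains in females. On the excess of pileup over background, which spreads more, R2 between the male lists (log2 ratio −1.35) and, between the sexes in CAST, R4 (−1.13) and R7 (−1.28) passed that limit, as did 10.6% and 3.91% of all regions in these comparisons.

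R1 (chr7:26672910-26673640, intergenic), 9.54 kb before the start of Cyp2b10, was in both B6 lists and neither CAST list. Its fold enrichment was 3.28 in male B6 and 2.48 in female B6, from 63 and 37 reads, with summits 9 bp apart. The male to female ratio equalled the median of all regions, with a log2 ratio of 0.00 relative to it (−0.59 to 0.64). This class held 1 of the 10 Cyp2b regions and 3.32% of all regions, and at a −log10 q of at least 15.7 it held 0 Cyp2b regions. The C/EBP motif TTGCNNAA, the letters of a family of liver transcription factors, began 1 bp before the male B6 summit of R1, and 17.2% of all regions held that motif in the same 300-base window.

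R3 (chr7:26680118-26680662, intergenic) was the region closest to a Cyp2b start, with its summit 2.32 kb before Cyp2b10, and it was found in male B6 alone. Its fold enrichment was 3.14 (interval 2.4 to 4.04), from 58 reads on a local background of 17.8, and it stood at the 38.5th percentile of the male B6 list. No DHS of female B6, male CAST or female CAST overlapped it. Of all regions, 14.2% were in male B6 alone, and 2 of the 10 Cyp2b regions were, R3 and R6. The male B6 list was also the one with DHS at 4 of 5 endothelial marker starts, with a summed fold enrichment of 9.67 against 2.35 in female B6 and 0 in both CAST lists. Stab2 was the marker without a DHS in male B6. The part of these cells in R3 and R6 was not tested.

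The sequence of R3 is shown because it holds the letters of the phenobarbital-responsive enhancer module. The 300 bases around the summit (chr7:26680168-26680467, + strand) contained TGTACT and TGACCT spaced by 4 bases, the NR1 element to which CAR and RXR bind, directly joined to TTGGC and GCCA spaced by 5 bases, the element of nuclear factor 1 (NF1). These patterns were added to the search after the sequence had been seen. The NR1 letters began 24 bp and the NF1 letters 39 bp after the summit, and the last base of the former is the first of the latter. Capitals mark both.

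R3: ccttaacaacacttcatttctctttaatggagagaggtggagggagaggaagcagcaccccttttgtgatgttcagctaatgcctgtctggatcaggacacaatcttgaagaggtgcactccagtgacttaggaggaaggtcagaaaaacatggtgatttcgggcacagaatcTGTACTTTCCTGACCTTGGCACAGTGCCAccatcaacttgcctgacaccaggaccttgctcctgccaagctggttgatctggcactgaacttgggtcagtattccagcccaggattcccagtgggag

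The NR1 pattern was found in 8 of the 51482 regions (0.0155%) and the NF1 pattern in 372 (0.723%), the latter also in R4. The exact direct repeats of AGTTCA or AGGTCA spaced by 4 or 3 bases, and the everted repeat spaced by 6, were searched as well and were found in 0 of the 10 Cyp2b regions. They were rare throughout, in 0.0777%, 0.0447% and 0.0311% of all regions.

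Sequence related to R3 lay nearer to the starts of the other 2 genes, and no list had a DHS there. A stretch of 259 aligned bases 0.96 kb before Cyp2b13 (chr7:26845554-26845812) was 72.6% identical to R3, and a stretch of 159 aligned bases 0.88 kb before Cyp2b9 (chr7:26957546-26957704) was 76.7% identical. Neither held the NR1 or the NF1 pattern. Of the 50-base stretches in them, 73.3% and 71.8% occurred once in the genome, compared with 100% in R3. Both are shown on the + strand, with capitals where the aligned letter differs from that of R3.

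Before Cyp2b13: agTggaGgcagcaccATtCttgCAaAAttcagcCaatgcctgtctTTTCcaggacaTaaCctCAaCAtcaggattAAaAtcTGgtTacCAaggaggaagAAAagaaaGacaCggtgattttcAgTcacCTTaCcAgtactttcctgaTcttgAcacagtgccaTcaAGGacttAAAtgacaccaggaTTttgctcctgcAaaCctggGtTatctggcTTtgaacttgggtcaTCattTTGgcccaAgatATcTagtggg

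Before Cyp2b9: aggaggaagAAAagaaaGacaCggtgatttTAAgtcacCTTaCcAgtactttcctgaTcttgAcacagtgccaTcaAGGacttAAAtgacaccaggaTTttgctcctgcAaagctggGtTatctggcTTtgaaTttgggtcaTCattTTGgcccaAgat

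R4 (chr7:26687062-26687682) lay in intron 1 of Cyp2b10, with its strongest summit 4.81 kb past the start. Its fold enrichment was 2.32 (male B6), 2.95 (male CAST) and 3.8 (female CAST), from 37, 44 and 33 reads, and female B6 had no DHS there. The CAST summits were 13 bp apart. The male B6 summit lay 299 bp from that of male CAST, and these 2 peaks abutted without sharing a base, so that they fall in 1 region through the female CAST peak, which overlapped the male B6 peak by 129 bp. The male to female log2 ratio in CAST was −0.62 relative to the median (−1.29 to 0.09), which did not differ from the median beyond counting error. The CAST to B6 log2 ratio in males was 0.27 (−0.39 to 0.94). This second ratio sets peaks without a shared base against each other, so it does not compare the same site between strains.

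R5 (chr7:26730151-26730660, intergenic), 18.67 kb past the end of Cyp2b10, was in female CAST alone, a class of 2.54% of all regions. It had a fold enrichment of 4.92 (interval 3.59 to 6.59) from 43 reads, the highest of the 4 DHS of that list at these genes. It stood at the 55.5th percentile of the female CAST list, which had a median fold enrichment of 4.06. R5 was related to sequence upstream of Cyp2b13 and Cyp2b9. A stretch 6.46 kb before Cyp2b13 (chr7:26840056-26840355) was 81.7% identical and one 4.46 kb before Cyp2b9 (chr7:26953966-26954265) was 80.7% identical, and no list had a DHS at either. R5 itself lay 4.93 kb before the end of a copy of the Cyp2b13 promoter at chr7:26734992-26735245 (92.9% identity over 254 aligned bases), where the annotation holds no gene and no list had a DHS. A stretch related to R3 (72.7% identity) lay 0.92 kb before the end of the same copy.

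At Cyp2b13 the B6 and CAST lists had different sites. R6 (chr7:26867516-26867959), in intron 4 of the gene and 21.26 kb past its start, was in male B6 alone, with a fold enrichment of 4.95 (interval 3.94 to 6.15) from 80 reads on a background of 15.4. This was the second highest value of any Cyp2b region in that list. It stood at the 61.1st percentile. R7 (chr7:26891076-26891684, intergenic), 10.14 kb past the end of the gene, was in both CAST lists and neither B6 list, a class of 3.62% of all regions. It was in female CAST alone with each list limited to 24888 DHS, in no list at a −log10 q of at least 15.7, and split into a region of each CAST list where 50% reciprocal overlap was asked for. Its fold enrichment was 2.82 in male CAST and 3.91 in female CAST, from 42 and 34 reads, with summits 23 bp apart. The male to female log2 ratio at R7 was −0.72 relative to the median (−1.40 to −0.02). The female value was the higher one, with an interval that ended next to 0, and the ratio was below the 2-fold limit. Female B6 had no DHS in the window of Cyp2b13.

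R7 is shown because it is the sole Cyp2b region of CAST in both sexes and of no B6 list. The 300 bases around its female CAST summit (chr7:26891205-26891504, + strand, reference letters) held TGTTTAC, the letters of FOXA factors, on the other strand 19 bp after the summit, CAAAGTCC, those of HNF4A, 30 bp after it, and ATTGAT, those of HNF6 and CUX factors, on the other strand 122 bp after it. All 3 are in capitals. FOXA, HNF4A and HNF6 are transcription factors of hepatocytes, and CUX2 is a female-expressed factor of mouse liver with a like motif. Of all regions, 6.6% held the FOXA letters, 3.35% the HNF4A letters and 13% the HNF6 and CUX letters in a window of this length.

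R7: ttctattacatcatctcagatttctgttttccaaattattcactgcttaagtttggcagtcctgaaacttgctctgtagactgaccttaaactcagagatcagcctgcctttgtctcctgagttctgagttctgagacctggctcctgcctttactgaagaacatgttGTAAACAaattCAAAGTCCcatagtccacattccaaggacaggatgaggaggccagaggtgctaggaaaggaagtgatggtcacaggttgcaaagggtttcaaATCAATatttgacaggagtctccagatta

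R6 had a close relative in Cyp2b9 that was a DHS in no list. Over 293 aligned bases, 85.3% were identical between R6 and chr7:26973322-26973614, inside Cyp2b9 and 14.89 kb past its start, with 42 mismatches and 1 gap. The 50-base stretches of the relative occurred once in the genome in 100% of cases, and those of R6 in 95.7%. Both are shown on the + strand, with capitals at the mismatches. The first is chr7:26867631-26867922.

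R6: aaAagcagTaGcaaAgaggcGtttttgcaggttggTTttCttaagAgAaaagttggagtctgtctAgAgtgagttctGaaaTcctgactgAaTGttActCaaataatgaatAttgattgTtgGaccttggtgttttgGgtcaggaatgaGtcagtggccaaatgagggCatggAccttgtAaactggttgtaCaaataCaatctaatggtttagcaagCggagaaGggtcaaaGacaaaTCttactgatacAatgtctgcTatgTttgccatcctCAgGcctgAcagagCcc

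Relative in Cyp2b9: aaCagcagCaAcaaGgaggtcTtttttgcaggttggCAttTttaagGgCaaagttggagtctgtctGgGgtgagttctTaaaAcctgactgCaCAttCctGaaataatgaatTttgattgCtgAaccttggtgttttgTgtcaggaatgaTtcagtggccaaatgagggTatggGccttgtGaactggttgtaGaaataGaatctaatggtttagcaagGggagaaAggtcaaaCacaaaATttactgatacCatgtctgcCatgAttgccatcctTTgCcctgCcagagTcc

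The R6 window held the HNF6 and CUX letters 31 bp before its summit and a C/EBP match 67 bp after it. The relative in Cyp2b9 held the C/EBP letters and no match to the HNF6 and CUX letters.

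All 3 regions of Cyp2b9 were found in female B6 alone. They made up 3 of the 10 Cyp2b regions, where 3.13% of all regions were in female B6 alone. R8 (chr7:26992582-26992826) lay in intron 8, the last of the gene, 34.27 kb past its start. Its fold enrichment was 2.68 (interval 1.92 to 3.64) from 39 reads. R9 (chr7:27011510-27011929) and R10 (chr7:27012599-27013032), both intergenic, lay 15.95 and 17.28 kb past the end of the gene, and each had a fold enrichment of 2.41 (interval 1.7 to 3.33) from 35 reads. All 3 stood on the genome-wide background of 13.9 reads, where the weakest female B6 DHS had 28 reads. They were among the weaker DHS of the list, R8 at its 22.5th percentile and R9 and R10 at the 11.7th. The number of sites rests on the window, since with 10 kb on each side of the gene R8 was the 1 region left at Cyp2b9, and within 20 kb of start sites 0 were left. At a −log10 q of at least 15.7 none of the 3 was left.

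Genes whose regions were all in female B6 alone were uncommon. Of 16658 protein-coding genes with at least 1 region in their window, 90 (0.54%) had every region in that list alone, and 21 (0.126%) had 3 or more such regions. Cyp2b9 was the single gene that met both conditions. This count was made after the pattern at Cyp2b9 had been seen, and its limit of 3 regions is the number at Cyp2b9 itself.

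The 300 bases around each summit are shown because these are the female B6 sites of a gene known for its expression in females. They are chr7:26992548-26992847 (R8), chr7:27011480-27011779 (R9) and chr7:27012812-27013111 (R10), on the + strand. Capitals mark matches to the searched motifs.

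R8: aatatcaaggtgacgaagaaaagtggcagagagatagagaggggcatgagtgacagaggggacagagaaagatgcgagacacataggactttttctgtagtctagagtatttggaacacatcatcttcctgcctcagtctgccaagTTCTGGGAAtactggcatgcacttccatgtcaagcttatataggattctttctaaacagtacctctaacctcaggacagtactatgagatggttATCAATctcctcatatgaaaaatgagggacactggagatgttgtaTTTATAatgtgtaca

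R9: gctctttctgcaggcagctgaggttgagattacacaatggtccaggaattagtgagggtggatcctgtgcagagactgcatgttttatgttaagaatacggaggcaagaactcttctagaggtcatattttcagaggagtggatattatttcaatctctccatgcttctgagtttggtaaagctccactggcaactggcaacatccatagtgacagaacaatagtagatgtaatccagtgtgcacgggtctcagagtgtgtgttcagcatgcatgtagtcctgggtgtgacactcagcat

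R10: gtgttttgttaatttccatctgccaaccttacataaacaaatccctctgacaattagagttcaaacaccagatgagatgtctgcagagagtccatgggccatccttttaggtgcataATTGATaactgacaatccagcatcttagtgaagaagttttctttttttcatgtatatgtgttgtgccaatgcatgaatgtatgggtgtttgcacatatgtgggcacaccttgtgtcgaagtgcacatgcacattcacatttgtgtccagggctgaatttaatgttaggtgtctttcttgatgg

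R8 was the only Cyp2b region with the STAT5 letters TTCNNNGAA, and they began 3 bp before its summit. Of all regions, 10.2% held these letters, which is near the share of 1 in 10 at the Cyp2b genes. Of the female B6 sites, the HNF6 and CUX letters were in R8 (91 bp after the summit) and R10 (32 bp before it), as they were in R6 and R7, so that 4 of the 10 Cyp2b regions held them, against 13% of all regions. R9 held no searched motif. TATAAA was in the 300-base windows of R2 and R8, in the latter past the end of the DHS itself, and in those of 12.5% of all regions.

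In B6, 8 Cyp2b regions were found in at least 1 sex. Of these, 3 were absent from the female list (R3, R4 and R6), where 36.4% of all B6 regions were, and 3 were absent from the male list (R8, R9 and R10), where 5.13% of all B6 regions were. In CAST, 0 of 4 regions were absent from the female list, against 40.3% of all CAST regions, and 1 of 4 was absent from the male list (R5), against 3.9%. No Cyp2b region was shared by the male lists and missing from the female ones, a class of 9.38% of all regions, and none was shared by the female lists and missing from the male ones, a class of 0.0622%. At 0 of the 10 regions was a site limited to the same sex in B6 and CAST.

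Between strains, 6 Cyp2b regions were found in males. Of these, 3 were absent from CAST (R1, R3 and R6), where 19.1% of all male regions were, and 1 was absent from B6 (R7), where 20.9% were. R4 was counted as present in both male lists, although its male B6 and male CAST peaks shared no base. In females, 8 regions were found. Of these, 4 were absent from CAST (R1, R8, R9 and R10), where 22.6% of all female regions were, and 3 were absent from B6 (R4, R5 and R7), where 18.3% were. In total 6 of the 10 Cyp2b regions were in 1 list alone, where 35.2% of all regions were.

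**Figure D3:**
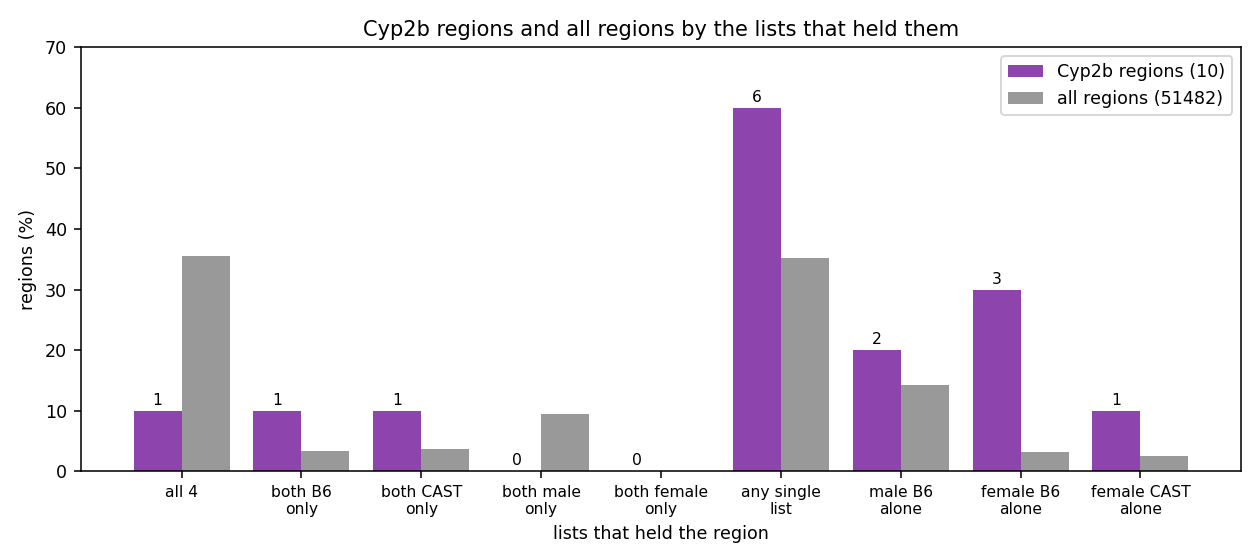
Share of regions (y axis, percent) by the lists that held them (x axis), for the 10 Cyp2b regions (purple, with the number of regions above each bar) and all 51482 regions (grey). The first 5 classes are shown as in the text, the sixth is any single list, of which the last 3 are parts, and R4, in 3 lists, is in none of these classes. Female B6 alone held 3 of 10 Cyp2b regions against 3.13% of all regions, and all 4 lists held 1 of 10 against 35.6%.

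The absence of DHS within 1 kb of the starts was set beside the uniqueness of the sequence, because the authors kept uniquely mapped reads of 50 bases. Within 1 kb on each side of the start, the share of 50-base stretches that occur once in mm9 was 100% at Cyp2b10, 55.7% at Cyp2b13 and 57.9% at Cyp2b9. Over the whole windows it was 88.1%, 66.7% and 75.7%. All 10 DHS regions lay in unique sequence, 9 of them with a share of 100% and R6 with 95.7%. Since DHS were called from uniquely mapped reads, they were bound to lie mostly in such sequence. The share counts single 50-base stretches of mm9 and takes no account of read pairs or of CAST variants. The part of the repeated sequence in the absence of DHS near the starts of Cyp2b13 and Cyp2b9 was not tested.

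**Figure D4:**
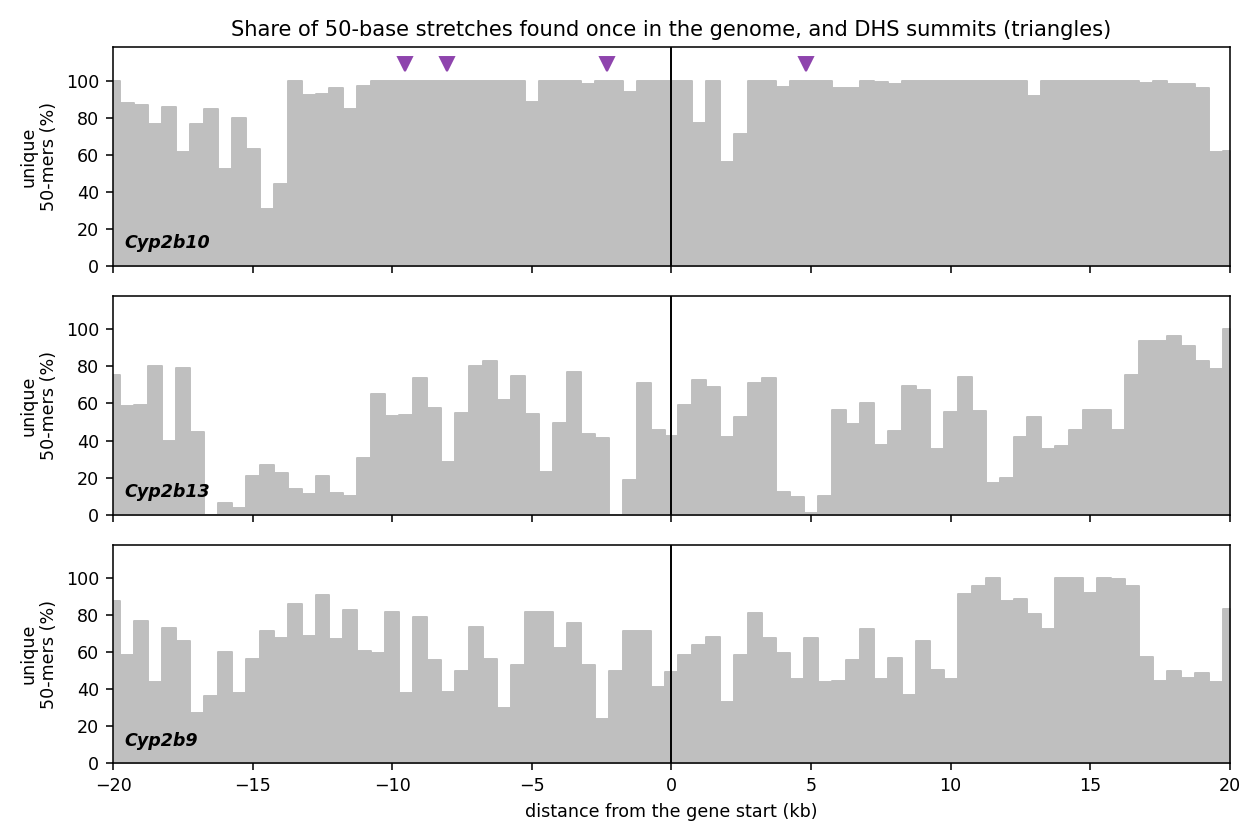
Percentage of 50-base stretches that occur once in the genome (y axis, bins of 500 bases) against the distance from the start of each Cyp2b gene in kb (x axis). The vertical line is the gene start and triangles are the strongest DHS summits of any list, of which 4 fall in this range at Cyp2b10 and 0 at the other 2 genes. Around the start of Cyp2b10 most bins are near 100%, whereas those around Cyp2b13 and Cyp2b9 mostly lie lower.

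The promoters of Cyp2b13 and Cyp2b9 are shown because they differ at 2 of 250 aligned bases (99.2% identity), and of the 50-base stretches in the 250 bases before the starts, 31.3% at Cyp2b13 and 47.8% at Cyp2b9 occur once in the genome. The aligned stretches are chr7:26846264-26846513, which ends at the base before the start of Cyp2b13, and chr7:26958178-26958427, on the + strand. Capitals mark the differences.

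Cyp2b13: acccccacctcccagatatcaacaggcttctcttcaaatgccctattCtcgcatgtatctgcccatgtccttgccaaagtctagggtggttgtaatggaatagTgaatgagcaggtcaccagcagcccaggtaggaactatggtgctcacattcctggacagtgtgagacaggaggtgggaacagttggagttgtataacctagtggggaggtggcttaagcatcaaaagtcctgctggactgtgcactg

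Cyp2b9: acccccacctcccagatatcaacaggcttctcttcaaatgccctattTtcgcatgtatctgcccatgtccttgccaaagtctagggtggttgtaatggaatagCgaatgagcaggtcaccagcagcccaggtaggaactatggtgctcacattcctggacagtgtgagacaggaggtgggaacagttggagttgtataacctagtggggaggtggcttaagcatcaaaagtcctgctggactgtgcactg

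The promoter of Cyp2b10 (chr7:26682389-26682638) was 73% identical to either over 252 aligned bases. It is shown on the + strand with a C/EBP match in capitals, which began 20 bases before the gene start. In both other promoters the C/EBP letters began 180 and 182 bases before the start, at Cyp2b13 and Cyp2b9. Of all protein-coding promoters, 9.16% held these letters in the same 250 bases. TATAAA was in none of the 3 and in 12.3% of all promoters.

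Cyp2b10: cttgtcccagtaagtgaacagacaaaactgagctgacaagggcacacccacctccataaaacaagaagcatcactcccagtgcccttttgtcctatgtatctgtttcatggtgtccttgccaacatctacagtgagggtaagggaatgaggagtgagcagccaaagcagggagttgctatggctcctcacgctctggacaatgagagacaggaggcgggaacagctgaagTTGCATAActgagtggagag

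Most other genes of the pathway had a DHS near the start. Of 10 genes of the CAR and PXR axis, which includes the receptors, their partner RXRα (Rxra), coregulators and P450 reductase (Por), 8 had a region within 2.5 kb of the start, against 54.3% of all protein-coding genes. Those without were Por and Ppargc1a. At Nr1i3, which encodes CAR, the fold enrichment near the start was 3.05 (male B6), 2.61 (female B6), 3.5 (male CAST) and 3.96 (female CAST). At Nr1i2, which encodes the related receptor PXR, it was 3.69, 2.54, 3.99 and 4.55 in that order. Both receptor genes thus had a DHS near the start in all 4 lists, whereas Cyp2b10 had one within 2.5 kb in male B6 alone (R3). In the windows of the 10 genes, 55 of 115 regions (47.8%) were in all 4 lists and 25 (21.7%) in 1 list, where 35.6% and 35.2% of all regions were.

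Neighbouring P450 genes on chromosome 7 were compared by the same window. The 10 genes, among them Cyp2b19 and Cyp2b23, had 17 regions, of which 6 were in all 4 lists (35.3%, against 35.6% of all regions) and 1 in female B6 alone (5.88%, against 3.13%). Cyp2b19 had 2 regions and Cyp2b23 had 0. The 4 Cyp2a genes, which encode steroid and coumarin hydroxylases, are among these 10 neighbours. They had 3 of the 17 regions, of which 3 were in male CAST, 2 in male B6 and 0 in either female list. The 2 of male B6 were also in male CAST, a pattern that 9.38% of all regions had. Among 15 Cyp2c genes, 32 regions were found, 14 of them (43.8%, against 35.2% of all regions) in 1 list and 2 (6.25%, against 3.13%) in female B6 alone. Among 9 Cyp3a genes, which include Cyp3a11, a target of PXR, 12 regions were found, 5 of them (41.7%, against 35.6% of all regions) in all 4 lists and 0 in female B6 alone. Of the 10 neighbours, 2 had a region within 2.5 kb of the start, as had 1 of 4 Cyp2a genes. So had 7 of 15 Cyp2c and 2 of 9 Cyp3a genes, against 1 of 3 Cyp2b genes and 54.3% of all protein-coding genes. Whether these families differ from the Cyp2b genes was not tested.

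The P450 genes most like each Cyp2b gene were sought among 58 Cyp genes with at least 2 regions and over 100 kb away, by the mean absolute difference over the 4 lists of the log2 summed fold enrichment (plus 1), each gene centred on its own mean. For Cyp2b10 they were Cyp4f15, Cyp8b1 (sterol 12α-hydroxylase of bile acid synthesis) and Cyp2d37-ps, with differences of 0.31, 0.32 and 0.33. For Cyp2b13 they were Cyp4x1, Cyp4f17 and Cyp2g1, with 0.38, 0.39 and 0.43. For Cyp2b9 they were Cyp4a14, Cyp2d40 and Cyp2j9, with 1.02, 1.10 and 1.19. A list without a DHS entered as 0, so these distances largely restate that Cyp2b9 had sites in a single list. None of the 3 was limited to female B6, and Cyp4a14, a fatty acid hydroxylase, had sums of 4.77, 6.05, 4.66 and 3.91 in male B6, female B6, male CAST and female CAST.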

How the data were processed

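DNase-seq fragments were sequenced as 50-base pairs, and for each sex and strain the authors merged 4 libraries, mapped uniquely aligned reads with Bowtie2 (B6 to mm9, CAST to mm9 with CAST variants, coordinates then returned to mm9) and called peaks with MACS2. Each deposited list gives, per peak, the fold enrichment ratio over background, the −log10 p-value, the −log10 q-value as a score, and the summit offset. Depth was not stated in the lists. From the deposited fold and −log10 p, summit pileups were recovered, which lay within 0.02 of a whole number for at least 99.86% of peaks.

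Groups came from the library titles. Each group has 1 pooled list, so counts and ratios are descriptions, and Poisson or binomial 95% intervals cover counting error only. Ratios were centred on the median of all regions in both lists, and the limit was 2-fold. Gene models came from GENCODE for mm9, and sequences from the mm9 genome. Occurrences of 50-base stretches were counted exactly on both strands. Related stretches came from blastn 2.17.0 (at least 150 aligned bases). Motifs were searched on both strands in 300 bases around the strongest summit or 250 bases before a start. Regions described singly were those within 2.5 kb of a start, those of 1 sex or strain, and the 10 highest by fold enrichment, which together covered every region. Members, lists and tests were chosen with earlier results of these data known. Python 3.11.15, numpy 2.4.6, pandas 2.3.3, scipy 1.17.1 and pysam 0.24.0 were used. Joining, recovery and 50-base counting were tested on simulated data.

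The alternatives were windows of 10 and 50 kb, 20 kb around start sites, a stricter threshold, lists of equal size, matched depth, joining within 500 bp, 50% reciprocal overlap, and other forms of the ratio.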

Additional observations from a re-analysis of the deposited data

How the results depend on the processing

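No paired analysis was possible because the 4 libraries of each group were used here only as 1 pooled list, in which they cannot be told apart, so that no single library could be left out either. Of 70 counts recomputed under 8 settings, 55 stayed within 1.5 times the reported count. With windows of 10 kb, female B6 had 3 regions and 3 regions were in 1 list, since R5, R9 and R10 lie farther away. Within 20 kb of start sites, R1 to R4 at Cyp2b10 were left and no region of Cyp2b13 or Cyp2b9, and female B6 had 2 and female CAST had 2. With a −log10 q of at least 15.7, male B6 kept 2 regions (R2 and R6), the other 3 lists had 0, 0 regions were in all 4 lists, 0 in both B6 lists only, 0 in both CAST lists only and 2 in 1 list. With 24888 DHS per list, male CAST had 0 regions, 0 were in all 4 lists and 0 in both CAST lists only. With 50% reciprocal overlap, 9 regions were in 1 list, since R7 was split between the CAST lists and the male B6 DHS of R4 was set apart, which left R4 as the region of both CAST lists only. Matched depth changed no count, and this setting, the stricter threshold and lists of equal size only remove DHS, so they cannot show whether a site found in 1 list alone is present in another. The classes of both male lists only and of both female lists only stayed at 0 in every setting that counted them. Of 32 recomputed ratios, 29 kept their value within its counting interval or, for percentile ranks, their direction. Among them, the form that paired the nearest summits of both lists could not move except through its median. Each region held 1 DHS per list, so the ratio itself was the same. At R2 the excess of pileup over background gave a log2 ratio of −1.35 between CAST and B6 males, and the male minus female percentile in CAST was 20.1. At R1, where the log2 ratio was 0.00, the male minus female percentile in B6 was 26.8. The cause of these changes was not tested. The list backgrounds of 7.94 to 15.4 reads limit what could be detected.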
